A study of Mus musculus with 6 samples.

Results

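Molecular chaperones and prolyl isomerases were measured through 78 alternative RNA events in 48 mouse genes, out of 12948 events in 7766 genes with intensities in the deposited table. They were chosen by gene name, as symbols that begin with Dnaj, Hsp, Fkbp, Ppia to Ppih, Ppil, Cct or Bag with a digit, Pdia, Stip1, Ahsa or St13. The rule left out 6 further events of 4 genes, which lie in the congenic interval around *Nxf1* on chromosome 19 or belong to an FKBP gene that the rule sets aside. The rule itself uses names and positions and no intensity.

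Chaperones bind unfolded or partly folded proteins and let them fold, cross membranes or be degraded. J-domain proteins and BAG proteins drive the ATP cycle of the 70 kDa heat shock proteins, and the proteins of the 110 kDa group exchange their nucleotide. FKBP proteins and cyclophilins catalyse the cis to trans turn of bonds before proline, and several cyclophilins sit in spliceosomes. In neurons, Hspa8 with the J-domain proteins Dnajc5 and Dnajc6 serves synaptic vesicles and clathrin-coated vesicles.

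The RNA came from whole brains of 6 mice of the B6.CAST congenic line, 3 homozygous for the CAST allele of *Nxf1*, an mRNA export factor, and 3 homozygous for the B6 allele. All shared a C57BL/6J background from serial backcross, and the CAST homozygotes also carried the linked CAST interval of chromosome 19. The animals were 3 same-sex pairs of littermates that differed in genotype (2 female, 1 male), at generations N37F1 and N36F2. One female pair was 46 days old and the other 23 days, and in the male pair the B6 homozygote was 22 days and the CAST homozygote 23 days. Each animal had 1 Affymetrix MJAY array, a splicing-sensitive design with probe sets for both outcomes of an event.

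The deposited table holds intensities as whole numbers from 43 to 13185, 1 value for all arrays of a set A and 1 for all arrays of a set B. It has no value per array, so no spread between animals, no standard error and no test could be computed, and every difference given here is a description of these pooled sets. The number of arrays limits the precision of each value. Neither set is given a genotype in the table. Its header lists controls before experiments and the Methods set CAST over B6, so set B may be the CAST homozygotes, but nothing in either ties a letter to a genotype. Directions are therefore given only as set B against set A. For each event, the change was taken as the log2 ratio of exclusion to inclusion intensity in set B minus that in set A. A change above 0 is relatively more intensity on the exclusion side in set B. For cassette exons, retained introns and alternative splice sites, this is relatively more exclusion of the optional segment. For alternative starts and ends no segment length is given, and exclusion and inclusion only name the sides as listed. An event was past the fold when its absolute change was over 0.5, which is 1.414-fold.

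Summed over the events of the listed markers, intensity for 8 of 9 neuronal genes came to 85370 (set A) and 83945 (set B). It was 53071 and 54846 for 6 of 6 astrocyte genes, 53104 and 51488 for 4 of 7 oligodendrocyte genes, 2395 and 2440 for 3 of 5 microglial genes, and 3389 and 3197 for 2 of 4 endothelial genes. *Ins2* and *Myh6*, listed as genes of other tissues, came to 995 and 1134. In set A the brighter side of an event ran from 1298 to 9980 for astrocyte genes and from 873 up for oligodendrocyte genes, above the 218 to 349 of *Ins2* and *Myh6*. It ran from 169 to 434 for microglial and from 142 to 712 for endothelial genes, which overlaps that range. The lowest neuronal event, at 132, lay under the range of *Ins2* and *Myh6*. Levels of different probe sets are not comparable, so these ranges do not show whether a cell type is present. The part of these differences in the chaperone values was not tested, and in whole brain fewer cells of a type and less RNA per cell cannot be told apart.

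Of the 78 chaperone and isomerase events, 4 were past the fold, which is 5.13%, against 7.34% of all events in the table. Shares over all events include the congenic interval, which the rule leaves out. They were an alternative 5′ splice site of *Hspb11*, a retained intron of *Hspa8*, an alternative 3′ splice site of *Dnajc2* and a cassette exon of *Dnajc19*. The first leaned to inclusion in set B (1 of 75 events with a direction, against 2.72% of all events) and the other 3 leaned to exclusion (3 of 75, against 4.51%). The median absolute change was 0.19 for the chaperone and isomerase events and 0.18 for all events, and 90% of the former were below 0.35. Changes were above 0 in 45 of the 75 events with a direction, or 60.0%, against 55.3% of all events. After the median change of all events, 0.03, was taken off, 53.3% were above 0, and the events past the fold were 1 with more exclusion and 2 with less.

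**Figure D1:**
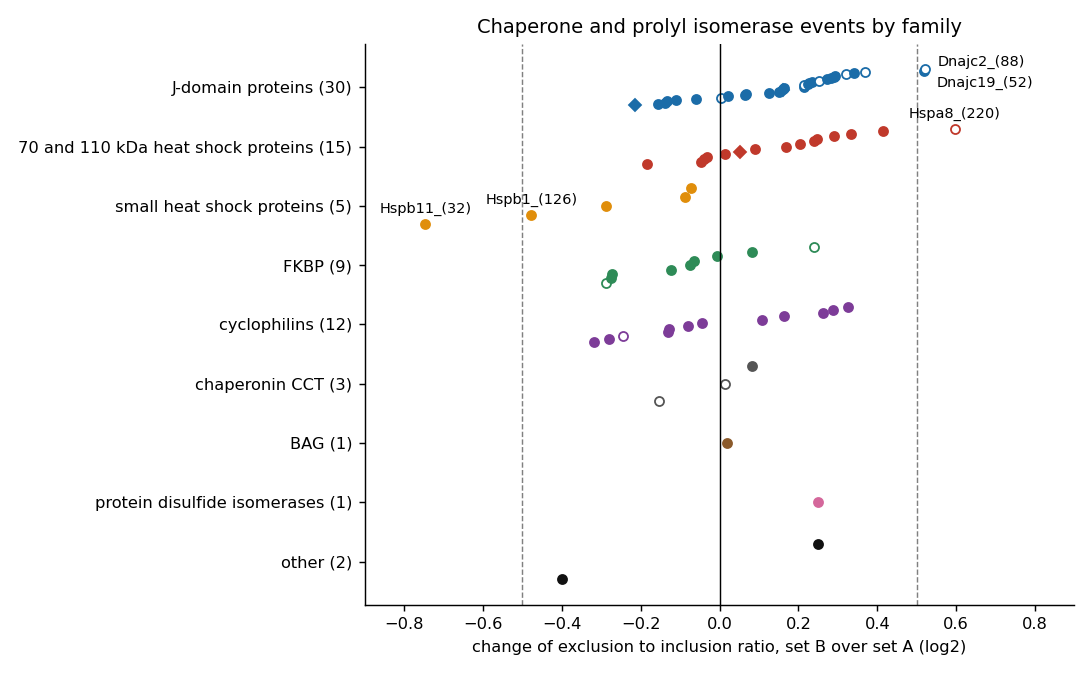
Change of the exclusion to inclusion ratio (log2, set B over set A, x axis) for each of the 78 events, by family with the number of events in brackets. Open symbols have an intensity under 102 on some side, diamonds are events without an exclusion path, and dashed lines mark 0.5 on either side of 0. The 4 events past the lines lie in 3 families, and the J-domain events lie mostly to the right of 0 while the 5 small heat shock protein events all lie to the left.

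The largest change was that of *Hspb11*, on chromosome 4 at 106926567 to 106935071 in the table's positions, whose assembly is not named. Exclusion gave a pooled value of 333 for set A and 288 for set B, and inclusion gave 375 and 544. The inclusion side was thus the one that differed most, by 0.54 on the log2 scale, against -0.21 for the exclusion side, and the change was -0.75, at rank 155 of 12948 events by absolute change. The optional segment is 32 nt, which is not a whole number of codons. *Hspb11* carries a small heat shock protein name, but its product is also known as IFT25, a subunit of the intraflagellar transport machinery of cilia. Its other event, an alternative end, changed by -0.07, with exclusion at 237 and 229 and inclusion at 120 and 122.

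*Hspa8* encodes the constitutive 70 kDa chaperone, abundant in brain, and had 4 retained introns on the array. For the 220 nt intron, on chromosome 9 at 40612025 to 40612247, the spliced junction gave 7226 for set A and 7636 for set B, and the intron gave 83 and 58. The intron side was lower by 0.52 on the log2 scale in set B, and the change was 0.60. Both intron values lie under 102, the 10th percentile of all intensities, so this change rests on a dim probe set. The 208 nt intron went from 1408 to 1238, with its junction at 10671 and 10537, a change of 0.17. The 234 nt intron went the other way, from 734 to 844, with its junction at 9397 and 9504, a change of -0.19. The 288 nt intron gave 206 and 193, with its junction at 5585 and 5117, a change of -0.03. The 4 introns therefore did not share a direction. In RefSeq, 3 small nucleolar RNA genes, *Snord14c*, *Snord14d* and *Snord14e*, lie within *Hspa8*, and the table does not say whether an intron probe set overlaps one of them.

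*Dnajc2* encodes a J-domain protein that works at the ribosome with *Hspa14*, a member of the 70 kDa group. For the 88 nt alternative 3′ splice site of *Dnajc2*, on chromosome 5 at 21288946 to 21290827, exclusion was 53 for set A and 82 for set B, and inclusion was 278 and 300. Both sides were higher in set B, exclusion by 0.63 and inclusion by 0.11 on the log2 scale, for a change of 0.52 that again rests on a dim side. For the 74 nt alternative 3′ splice site of *Hspa14*, exclusion was 188 and 242 and inclusion 402 and 388, a change of 0.42, and an alternative end that shares a boundary with it changed by -0.05. In both partners exclusion of the optional segment was relatively higher in set B, and *Hspa14* was not past the fold.

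*Dnajc19* encodes a J-domain protein of the motor that pulls proteins into mitochondria. Its 52 nt cassette exon, on chromosome 3 at 33979059 to 33980128, had exclusion at 839 for set A and 1159 for set B, and inclusion at 946 and 912. All 4 values were far above the dim limit, and most of the difference was on the exclusion side, 0.47 against -0.05, for a change of 0.52. *Dnajc15*, a paralog of *Dnajc19* in the same machinery, also has a cassette exon of 52 nt on the array. There exclusion was 112 and 135 and inclusion 621 and 611, a change of 0.29. A 1248 nt retained intron of *Dnajc19* changed by -0.06 and an alternative end by 0.07, so its cassette exon stood apart from the gene's other events.

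**Figure D2:**
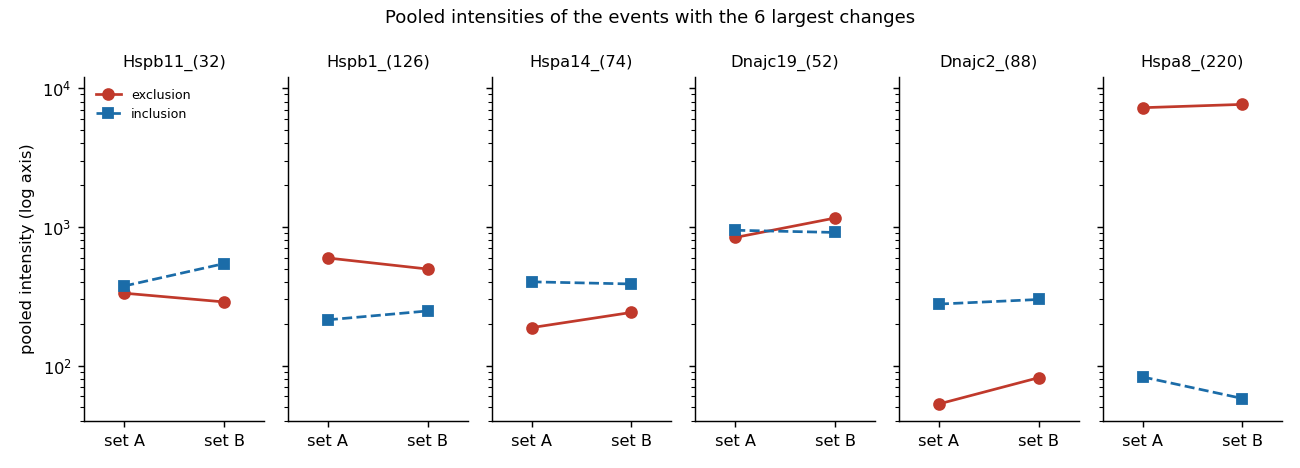
Pooled intensity (y axis, log scale) of the exclusion probe sets (circles, solid) and inclusion probe sets (squares, dashed) in set A and set B for the 6 events with the largest absolute changes. Each point is 1 pooled value with no replicate error, and levels of different probe sets are not comparable. The lines of a panel run apart from or towards each other by the change, and the lowest points are the inclusion side of *Hspa8* and the exclusion side of *Dnajc2*.

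Closest to the threshold without passing it was the 126 nt intron of *Hspb1*, the small heat shock protein also called Hsp27, on chromosome 5 at 136364982 to 136365110. Its spliced junction gave 597 for set A and 497 for set B, and its intron gave 214 and 248. The sides differed by -0.26 and 0.21, and the change was -0.48, more intron in set B. Closest among those past it were *Dnajc19* and *Dnajc2*, both at 0.52. With the median of all events taken off, *Hspb1* was past the fold and *Dnajc19* and *Dnajc2* were not.

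Few of the listed reference chaperones have an alternative event in the table. Of the 28 genes that were to be named wherever they had an event, 10 had one, and the 90 kDa heat shock proteins, *Hspa5* and *Ppia* had none among the members.

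The J-domain proteins, which hand substrates to the 70 kDa chaperones, were the largest family, with 30 events in 18 genes. Of their 28 events with a direction, 23 had a change above 0 and 5 below, with a median of 0.21, against 55.3% above 0 and a median of 0.03 over all events. Changes above 0 were also frequent in the events of the neuronal markers (14 of 16) and astrocyte markers (7 of 8). They made up 5 of 9 for oligodendrocyte, 3 of 5 for microglial and 2 of 6 for endothelial markers, and 2 of 2 for the genes of other tissues. With the median of all events taken off, the J-domain counts were 21 above 0 and 7 below. The events of a gene share RNA and some share probes, so these are not independent points. *Dnajb6*, which keeps aggregation-prone proteins soluble, has long and short isoforms that differ at the 3′ end. Its more distal alternative end had exclusion at 297 for set A and 317 for set B and inclusion at 409 and 357, a change of 0.29. The other alternative end had 105 and 120 against 4821 and 4680, a change of 0.24. Both ends leaned the same way and neither was past the fold.

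The 53 nt cassette exon of *Dnajc5*, the cysteine string protein of synaptic vesicles, had exclusion at 2540 and 2118 and inclusion at 310 and 237, a change of 0.13. Its 75 nt cassette exon had 2020 and 1956 against 389 and 413, a change of -0.13. *Dnajc6*, or auxilin, which brings Hspa8 to clathrin coats, had a complex event with exclusion at 663 and 583 and inclusion at 103 and 76, a change of 0.25 with a dim inclusion side. *Dnajc8*, which associates with spliceosomes, had a 164 nt cassette exon at 441 and 421 against 137 and 144, a change of -0.14. In these vesicle and spliceosome genes the signs differed, and none was past the fold.

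Among J-domain proteins of the endoplasmic reticulum, the alternative end of *Dnajb11* changed by 0.37 on a dim exclusion side (62 and 75, with inclusion at 219 and 205). *Dnajb12*, bound to its membrane, had a 146 nt cassette exon at 0.21, also on a dim exclusion side (75 and 81, with inclusion at 696 and 648), and a complex event at -0.11. *Dnajc1*, another membrane-bound member, had a complex event with exclusion at 999 and 1093 and inclusion at 553 and 478, a change of 0.34, and an alternative end at 0.23. The 3 events of *Dnajc11*, a mitochondrial member, lay between 0.16 and 0.28.

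Among the 70 and 110 kDa heat shock proteins, there were 15 events in 7 genes. The 14 with a direction had a median change of 0.19, with 10 above 0 and 4 below, against 0.03 and 55.3% above 0 over all events. *Hsph1* encodes Hsp105, whose α and β forms differ by a cassette exon. For its 132 nt cassette exon, which is 44 codons, exclusion was 123 for set A and 133 for set B and inclusion was 593 and 509. The change was 0.33, most of it from the inclusion side, which was lower by 0.22 on the log2 scale. Its alternative end changed by -0.04 (105 and 104 against 831 and 846). *Hspa4*, also of the 110 kDa group, had 1196 and 1190 against 124 and 116 at an alternative end, a change of 0.09, and its relative *Hspa4l* had 1005 and 978 against 195 and 160, a change of 0.25. All 3 events of *Hspa13*, a microsomal member, leaned to exclusion, between 0.20 and 0.29, and a cassette exon and an alternative end among them share a boundary.

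The small heat shock proteins form oligomers that hold unfolded proteins without ATP. Their 5 events in 4 genes all had changes below 0, from -0.75 to -0.07, as had 5607 of the 12560 events with a direction in the whole table. The median of all events, and those of the event types concerned, lie above 0, so taking them off could not alter this count. *Hspb2* had an alternative 3′ splice site of 281 nt with exclusion at 234 and 219 and inclusion at 160 and 183, a change of -0.29. *Hspb6* had an alternative start at 609 and 603 against 170 and 179, a change of -0.09. Since 2 of the 5 are those of *Hspb11*, the count for genes known to act as chaperones is 3.

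Of the 9 FKBP events, 2 had changes above 0, against 55.3% of all events, and none was past the fold, against 7.34%. *Fkbp1a*, or FKBP12, the receptor of the drugs FK506 and rapamycin, had a complex event whose exclusion side gave 9890 for set A and 9893 for set B while inclusion gave 1308 and 1585, a change of -0.28. Its exclusion side was thus equal to within 0.01 on the log2 scale. *Fkbp5*, a co-chaperone of steroid receptors, had an alternative start at 1362 and 1519 against 138 and 162, a change of -0.07. *Fkbp6*, known for its part in germ cells, had the family's largest absolute change, -0.29 at a dim alternative end (70 and 75 against 65 and 85).

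The 12 cyclophilin events split, 5 above 0 and 7 below, against 55.3% above 0 over all events. None was past the fold, against 7.34% of all events. The nuclear cyclophilin *Ppig*, which carries a domain rich in arginine and serine, gave the widest split of any gene here without an event past the fold. Its 90 nt cassette exon, which is 30 codons, had exclusion at 834 for set A and 1046 for set B and inclusion at 171 in both, a change of 0.33. Its alternative start had exclusion at 408 and 393 and inclusion at 890 and 1069, a change of -0.32. The events share a boundary, and the side that was higher in set B is exclusion in one and inclusion in the other. *Ppih*, a cyclophilin of the U4/U6 small nuclear ribonucleoprotein, had a complex event at -0.28 (141 and 150 against 106 and 137) and an alternative end at -0.08. *Ppib*, the cyclophilin of the endoplasmic reticulum, had a retained intron named as 2402 nt, a length that its listed span does not match. Its junction was at 3012 and 3323 and the intron at 3141 and 2888, a change of 0.26.

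The remaining families had few events. The 3 events of *Cct3* and *Cct6a*, subunits of the chaperonin that folds actin and tubulin, lay between -0.15 and 0.08, the lowest being a 150 nt alternative 3′ splice site of *Cct3* (1306 and 1294 against a dim 79 and 87). The 110 nt cassette exon of *Bag2* changed by 0.02 (105 and 112 against 207 and 218). The 137 nt cassette exon of *Pdia5*, a protein disulfide isomerase, changed by 0.25 (147 and 168 against 470 and 452). *St13*, or Hip, which stabilises the ADP state of the 70 kDa chaperones, had an alternative start at 1328 and 1177 against 326 and 381. Its change was -0.40, the third lowest among the chaperone and isomerase events. The directions in the chaperonin and for *Bag2* turned when the median of all events was taken off, where 1 of the 3 chaperonin events was above 0 and *Bag2* was below.

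In several genes both sides of an event moved together and the ratio hardly changed. An event's level change was taken as the mean of the log2 differences of its sides. It was over 0.25 in size in 10 of 78 events, or 12.8%, against 14.9% of all events. A single side was past 0.5 in 3 events, *Hspb11*, *Hspa8* and *Dnajc2*, against 6.48% of all events. The alternative start of *Fkbp8*, an FKBP of the mitochondrial outer membrane, had exclusion at 238 for set A and 304 for set B and inclusion at 487 and 625. Its level change was 0.36 and its ratio change -0.01. The 91 nt cassette exon of *Dnajb6* had 382 and 313 against 2508 and 2026, a level change of -0.30 and a ratio change of 0.02. The 51 nt alternative 5′ splice site of *Dnajb2*, a J-domain protein of neurons, had 1541 and 1973 against 960 and 1176, a level change of 0.32 and a ratio change of 0.06. The 53 nt exon of *Dnajc5* had a level change of -0.32.

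**Figure D3:**
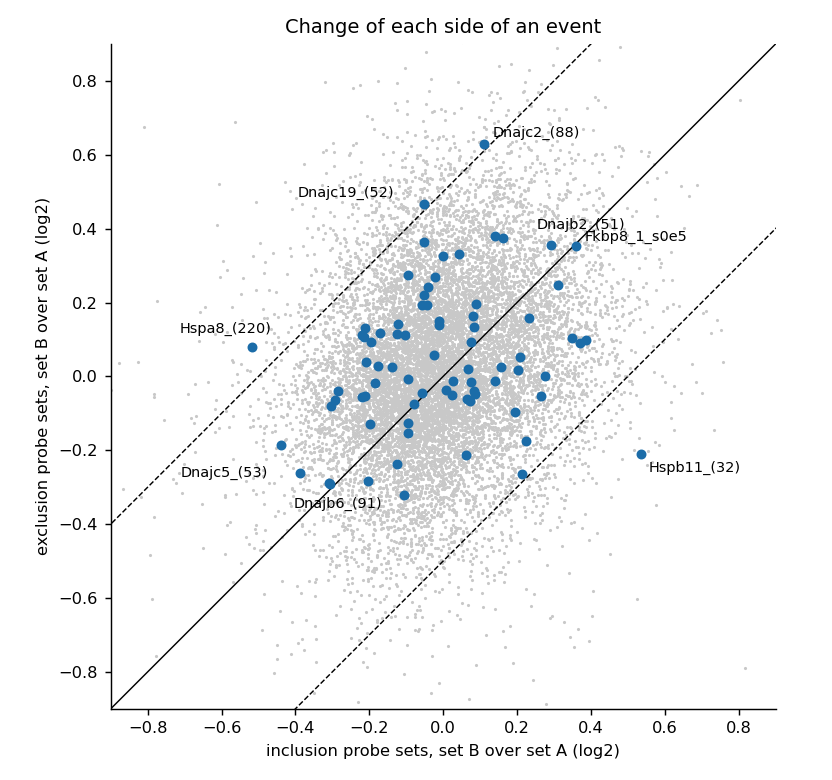
Log2 difference, set B over set A, of the inclusion probe sets (x axis) and exclusion probe sets (y axis) for the 78 chaperone and isomerase events (blue) and all 12948 events (grey, those within the axes). The solid line is an equal change of both sides and the dashed lines are ratio changes of 0.5 either way. *Fkbp8*, *Dnajb2*, *Dnajb6* and *Dnajc5* lie along the solid line, and among the 78 events *Hspb11* lies farthest from it.

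Of the 10 events with such a level change, those of *Dnajc2* and *Dnaja4* are their genes' single events, and the other 8 genes differed in how far the change was shared. The other event of *Fkbp6* was at 0.24 where its 120 nt exon was at 0.28, and that of *Dnajb2* was at 0.08. That of *Fkbp11* was at 0.12 where its complex event, with a dim exclusion side, was at 0.26. The other event of *Fkbp8*, an alternative end, had 2982 and 2899 against 255 and 270, a level change of 0.02. The other cassette exon of *Dnajc5* was also at 0.02, and the other event of *Cct3* was at 0.06 where its dim 76 nt intron was at -0.30. The alternative ends of *Dnajb6* were at 0.07 and -0.05 where its 91 nt exon was at -0.30. In *Dnajc6* the other event was at 0.07 where its dim complex event was at -0.31. Of the 12 member events with a dim side, 33.3% had such a level change, against 9.09% of the 66 without one. Over all events these shares were 19.3% and 13.6%. Of the 23 genes with more than 1 event, 13 had level changes on both sides of 0 and 10 had ratio changes on both sides of 0. *Dnajc6* and *Hspa12a* each have an event without a direction and are not among the 10. The same counts over all genes of the table were not made, so mixed signs are not shown to be particular to these genes. The widest level range was that of *Ppih*, from -0.24 to 0.23.

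**Figure D4:**
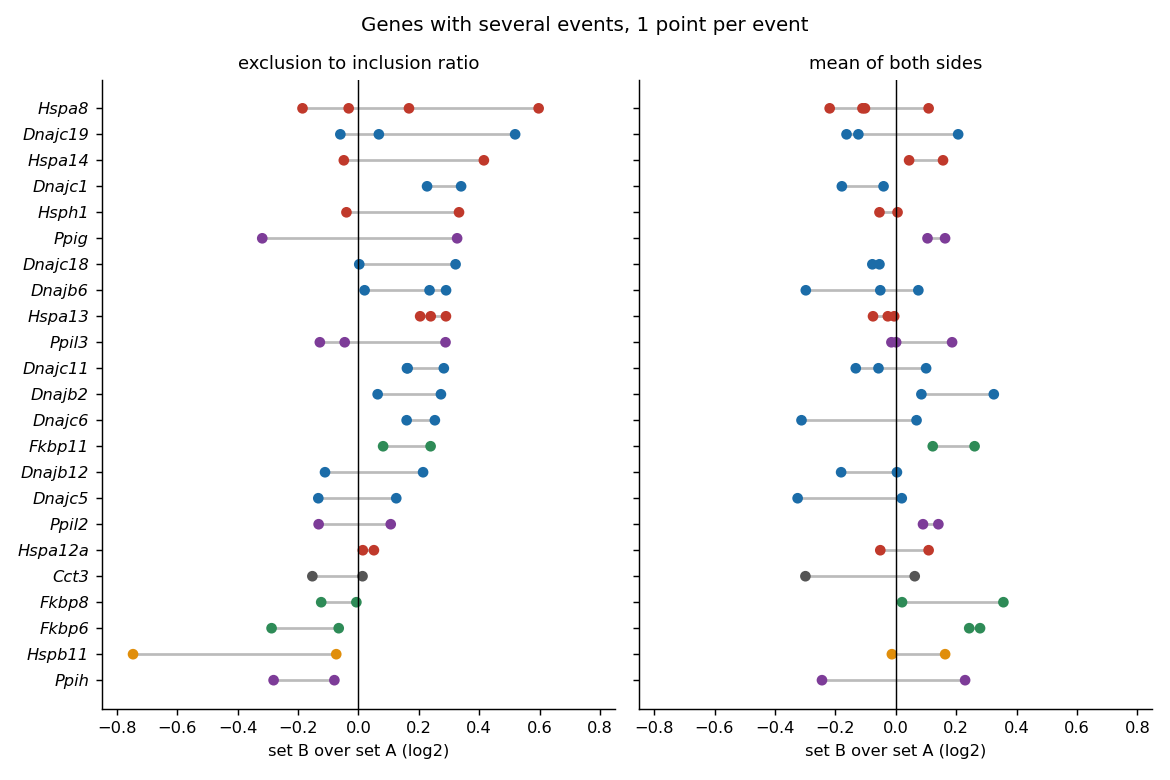
Ratio change (left) and level change (right) of each event, log2 of set B over set A, for the 23 genes with more than 1 event. Points are events, coloured by family as in the plot by family, and lines join the events of a gene. *Hspb11*, *Hspa8* and *Ppig* have wide ratio ranges, and *Ppih* has the widest level range.

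By kind of event, alternative ends made up 20 of the 78, cassette exons 17, retained introns 13, alternative starts 9 and complex events 8. There were 5 alternative 3′ splice sites, 3 alternative 5′ splice sites and 3 complex events without an exclusion path. None of the 20 alternative ends was past the fold, against 2.78% of all alternative ends. Of the 13 retained introns, 1 was past it, against 9.87% of all retained introns. By the lengths in their names, the member introns ran from 76 to 2402 nt with a median of 288 nt. The median over all retained introns was 335 nt. Of the 17 cassette exons, from 52 to 164 nt, 7 were whole numbers of codons, or 41.2%, against 53.2% of all cassette exons. The only cassette exon past the fold, that of *Dnajc19*, was not.

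Heat shock factor binds repeats of the letters GAA and their complement near the start of many chaperone genes, and 9 of the events here are alternative starts. The RefSeq promoters of GRCm38.p6, 250 bases before to 50 bases after each start, were therefore read for GAANNTTC and TTCNNGAA, each of which reads the same on both strands. Of 51 windows for 39 members, 11 held a match, or 21.6%, against 15.1% of 32851 windows of all genes. The remaining members, among them *Hspa8*, *Dnajc2* and *St13*, had no window and were not read. The extended forms GAANNTTCNNGAA and TTCNNGAANNTTC, which contain both shorter ones, were found in 4 windows, or 7.84%, against 0.603% of all windows. Those 4 windows are the overlapping pairs of *Dnajb6* and *Hsph1*. The extended matches of these genes are shown, and the matches of *Hspb1* and of the 3 genes with an alternative start event where only one of the RefSeq starts had a match, with the matching letters in capitals, 5′ to 3′ on the gene's strand. *Hsph1* has a further, shorter match that begins 33 bases before its first RefSeq start and is not printed. A match is a description of letters and not a binding site.
Dnajb6, chr5:29735844-29735873, plus strand: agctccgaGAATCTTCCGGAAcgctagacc
Hsph1, chr5:149636279-149636308, minus strand: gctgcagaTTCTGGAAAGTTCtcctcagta
Hspb1, chr5:135887801-135887830, plus strand: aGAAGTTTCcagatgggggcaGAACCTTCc
Dnaja4, chr9:54699458-54699487, plus strand: ggaacctccgcGAACGTTCtgggcctatgt
Dnaja4, chr9:54699496-54699525, plus strand: gcctcctggcgGAACCTTCcgccggcgccg
Dnajb4, chr3:152193841-152193870, minus strand: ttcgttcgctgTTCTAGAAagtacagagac
Hspb6, chr7:30553170-30553199, plus strand: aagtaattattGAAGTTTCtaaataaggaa

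In *Dnaja4* the shown matches begin 90 and 52 bases before the second of 2 RefSeq starts, and the first start has none. The alternative start event of *Dnaja4* had exclusion at 665 for set A and 863 for set B and inclusion at 276 and 309, a change of 0.21 and a level change of 0.27. In *Dnajb4* the match begins 14 bases before the second of 2 starts, and the event had 943 and 892 against 357 and 289, a change of 0.22 and a level change of -0.19. In *Hspb6* it begins 120 bases before the second of 2 starts, and its event changed by -0.09. The 3 genes thus differed in direction of both ratio and level. Which RefSeq start an event's inclusion side reads is not stated in the table, so the letters cannot be tied to a side. Among the other alternative start members with a RefSeq window, *Dnajc25* (0.15), *Fkbp5*, *Fkbp8*, *Hspa12a* (0.01) and *Ppig* had no match in these windows.

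Other genes of protein folding that the name rule does not reach gave 44 events in 29 of 72 listed genes. Of these, 4 were past the fold, or 9.09%, against 7.34% of all events, and the median absolute change was 0.21, against 0.18. All 4 leaned to exclusion in set B, the direction of 4.51% of all events, against 2.72% for the other. *Tor2a*, a torsin ATPase, had an 85 nt segment with exclusion at 192 for set A and 416 for set B and inclusion at 423 and 375, a change of 1.29. *Nktr*, a large cyclophilin-domain protein, had a 108 nt segment at 210 and 203 against 513 and 298, a change of 0.73. *Clpb*, a mitochondrial disaggregase, had 284 and 402 against 482 and 427, a change of 0.68, and *Grpel2*, a nucleotide exchange factor of mitochondrial Hsp70, had 496 and 603 against 240 and 203, a change of 0.52. *Hsf1*, the heat shock transcription factor, had 7 events between -0.20 and 0.46, none past the fold.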

How the data were processed

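Brain RNA was extracted with Trizol and an RNeasy kit, labelled with biotin and hybridized to Affymetrix MJAY arrays, 1 per animal. The submitters' processing notes name Affymetrix Power Tools. Background correction, normalization and genome assembly are not given in the sources used here.

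The authors deposited 1 table of 26514 paths with summarized exclusion and inclusion intensities, pooled over the arrays of sets A and B. These deposited intensity values, a linear unit of no fixed scale, are identical for the paired and the standard comparison wherever both are listed. The table also holds the authors' own scores and q-values, which were not used.

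Paths were joined by event name, with sides turned for included paths. An event took its path with the largest absolute change. Complex events without an exclusion path had no direction. The number in an event's name was taken as segment length: for 995 of 1061 retained introns it equals the listed span less 2. Among the member introns this held for 11 of 13, and not for those of *Ppib* and *Ppif*. Only 11 of 78 member events lie inside their gene's RefSeq span, so the table's positions were not joined to GRCm38.p6. All 48 members matched RefSeq by symbol.

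Named events were those past the fold, the 3 highest and 3 lowest, the largest of each family and all events of 28 listed genes, with others added after their values were seen. Members and lists were chosen with earlier results of these data known. The event step was tested on simulated data. Alternatives were other thresholds, paths, centring, an added 50 and removal of dim probe sets. Python 3.11.15, numpy 2.4.6, pandas 2.3.3 and matplotlib 3.10.9 were used.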

Additional observations from a re-analysis of the deposited data

How the results depend on the processing

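No paired analysis was possible because the intensities are pooled over the arrays of a set, and those listed for the paired comparison are the same numbers as for the standard one. For the first reason no animal could be left out. The 4 chaperone and isomerase events past the fold became 0 with a threshold of 0.75, 2 without events that have an intensity under 102 (*Dnajc19* and *Hspb11*), and 1 with 50 added to every intensity (*Hspb11*). They were 4 with the exclusion path only, the median over paths, or a threshold of the log2 of 1.4, 6 with a threshold of 0.4, and 3 with centring on all events or on the event type. Without *Hspb11* and *Hspbap1*, which are not themselves chaperones, an alternative chosen after seeing the data, 3 were past the fold. *Hspg2*, which was to be left out, has no event, and the intensities of the standard comparison gave the same 4. The count of events with a side past 0.5 went from 3 to 0 with 50 added and to 1 without dim events, both chosen after seeing the data. Over all events, the 950 past the fold became 1808 at 0.4, 149 at 0.75 and 412 with 50 added. They became 922 with centring on all events, 923 with centring on the event type and 655 without dim events. Without dim events, 3.03% of the chaperone and isomerase events were past the fold, against 6.47% of all events. With 50 added, the change of *Hspa8* went from 0.60 to 0.38 and that of *Dnajc2* from 0.52 to 0.26. That of *Fkbp6* went from -0.29 to -0.17. The other 24 of the 27 events named by the stated criteria moved by less than 0.1. For the events added after their values were seen, some with a dim side, this shift was not examined. The median absolute change ranged from 0.14 to 0.20. Of the 78 events, 12 have an intensity under 102, or 15.4%, against 21.8% of all events.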

Other observations

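The 3 complex events without an exclusion path compare several paths with 1 shared set of probes. In *Dnajb5*, a J-domain protein, the paths gave 821 for set A and 844 for set B, then 559 and 526, and then 1497 and 1198, against a shared set at 1359 and 1263. The last path was lower by 0.32 on the log2 scale and the first was higher by 0.04. In *Dnajc6* the 3 paths changed by 0.03 to 0.16 relative to the shared set, and in *Hspa12a* by -0.02 to 0.05.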
